A study of Mus musculus with 18 samples.

Results

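Fibroblast growth factor (FGF) and hepatocyte growth factor (HGF) signalling was followed through 9 genes: the ligand genes Fgf1, Fgf2, Fgf7, Fgf10 and Hgf, and the receptor genes Fgfr1, Fgfr2, Fgfr3 and Met. They were taken by gene symbol from the count tables, and all 9 were found among 23238 symbols. RNA came from intestinal stromal cells (IntSCs) and lacteal lymphatic endothelial cells (LECs), the lining of the lymphatic capillaries inside small intestinal villi, of adult C57BL/6J mice. WT libraries are labelled PDGFRb+-CreERT2-Tomato+, a tamoxifen-inducible Cre under the Pdgfrb promoter with a Tomato reporter, and KO libraries carry the same alleles with Lats1f/f and Lats2 f/f. LATS1 and LATS2 are Hippo pathway kinases that hold YAP and TAZ, co-activators of transcription, out of the nucleus, and the design asked what their loss in PDGFRb+ cells did to the stroma and to the neighbouring LECs. There were 6 WT IntSC, 5 KO IntSC, 4 WT LEC and 3 KO LEC libraries. The Cre targets the stromal cells, so LECs of KO mice were not its target, and PDGFRb+ cells of the villus comprise fibroblasts, smooth muscle cells and pericytes together. Tamoxifen was injected to activate the Cre per the study's methods. The interval before sorting is not given in the labels, whereas the study's supplement gives ages at induction and analysis in its figure on sorted IntSCs. A lower level in such bulk libraries can come from fewer cells of a type or from less RNA per cell, and these cannot be told apart.

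FGFs are secreted proteins that bind receptor tyrosine kinases of the FGFR family together with heparan sulfate chains on the cell surface. FGF7 and FGF10 are typically made by mesenchymal cells and act on a splice form of FGFR2 found on epithelium. HGF is also a mesenchymal product, released as a precursor that proteases cleave before it can activate MET, its receptor. Both families feed the RAS and ERK cascade, and FGF2 and HGF are known to act on lymphatic endothelium. The libraries read the 3′ end of transcripts, so counts per symbol do not separate splice forms of a receptor.

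Fgf7, Hgf and Fgf10 are ligands with reads in most IntSC libraries and in few or no LEC libraries, and the 250 bases before their annotated starts are shown for that reason. Positions and sequences are those of RefSeq on GRCm38.p6, the build that mm10 names, and each is written 5′ to 3′ on the gene's strand. Capitals mark a forkhead core motif, GTAAACA or its reverse complement TGTTTAC, searched on both strands and chosen after the sequences were seen. The windows lie at chr2:126034408-126034657 for Fgf7, chr5:16553245-16553494 for Hgf and chr13:118714449-118714698 for Fgf10, all on the plus strand.
Fgf7: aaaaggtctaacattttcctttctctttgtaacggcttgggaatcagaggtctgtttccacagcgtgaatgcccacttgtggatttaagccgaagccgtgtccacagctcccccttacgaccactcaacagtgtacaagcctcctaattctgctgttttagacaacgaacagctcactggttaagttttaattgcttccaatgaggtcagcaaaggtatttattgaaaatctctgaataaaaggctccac
Hgf: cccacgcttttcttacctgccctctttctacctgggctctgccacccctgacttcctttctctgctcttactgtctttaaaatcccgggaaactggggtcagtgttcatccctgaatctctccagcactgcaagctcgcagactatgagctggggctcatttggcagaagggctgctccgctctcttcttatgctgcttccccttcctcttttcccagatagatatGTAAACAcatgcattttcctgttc
Fgf10: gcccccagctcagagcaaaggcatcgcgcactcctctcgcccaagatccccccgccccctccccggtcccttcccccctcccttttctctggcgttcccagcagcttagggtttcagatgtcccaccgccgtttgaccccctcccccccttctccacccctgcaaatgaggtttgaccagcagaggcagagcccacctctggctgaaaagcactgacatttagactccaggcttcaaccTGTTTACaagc
The forkhead core stood in 2 of 9 windows of 7 of the genes, the Hgf and the Fgf10 window shown, and in 3.17% of all 32851 windows of this length. A second Hgf window, at chr5:16553651-16553900, held 0 matches. TEAD factors are the DNA-binding partners of YAP and TAZ, and their core motif CATTCC, searched on both strands, was in 0 of 9 windows of 7 of the genes and in 12.6% of all windows. For the Vegfc promoter the study used a shorter TEAD sequence, GGAAT. That shorter sequence was not counted here, and it stands in the Fgf7 window shown above. The AP-1 motif TGAGTCA, searched on both strands, occurred once among the 9 windows, on the plus strand at chr6:17463893-17463919, and in 4.46% of all windows. It precedes a Met transcript start of the RefSeq promoter table that lies inside the annotated span of Met given below, so the stretch is within the gene. The stretch is shown with the motif in capitals.
Met: gttgcccggcTGAGTCAcgggccgggc
None of the 3 motifs contains another. The letters describe these windows and say nothing of what binds there.

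The genes lie apart in the genome. Fgf2 spans positions 37348477 to 37410106 of chromosome 3 and shares 5125 bases with Nudt6, so its few reads are uncertain where counting ignored strand. Fgfr1 (chromosome 8, 25518759 to 25575718), Fgf7 (chromosome 2, 126034658 to 126091185), Hgf (chromosome 5, 16553495 to 16619439) and Met (chromosome 6, 17463349 to 17573980) each overlap at least 1 other annotated gene. Fgf10 (chromosome 13, 118714699 to 118792573), Fgfr2 (chromosome 7, 130162451 to 130266808) and Fgfr3 (chromosome 5, 33721724 to 33737068) overlap none.

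Stromal and LEC markers matched the labels of the sorts. Stromal markers (9 genes, among them Pdgfrb, Col1a1 and Dcn) summed to 7450 to 15675 CPM (counts scaled to the size of each library) in the 11 IntSC libraries and to 821 to 2344 CPM in the 7 LEC libraries, the highest of which was WT LEC 1. The 10 LEC markers summed to 9262 to 15109 CPM in LECs, 244 to 423 CPM in WT IntSCs and 433 to 509 CPM in KO IntSCs. Prox1, the transcription factor that defines lymphatic endothelium, had 3 reads in each IntSC group. Epithelial markers (12 genes) summed to 6.06 to 169 CPM in WT IntSCs, with WT IntSC 6 the highest, to 51.6 to 179 CPM in KO IntSCs, to 22.7 to 47.8 CPM in WT LECs and to 45.2 to 173 CPM in KO LECs. Paneth and goblet cell markers (10 genes) summed to 1.08 to 101 CPM in WT IntSCs, again highest in WT IntSC 6, and to 85.3 to 184 CPM in KO IntSCs. In LECs they summed to 0.200 to 44.7 CPM in WT and 53.7 to 225 CPM in KO libraries. Blood endothelial markers (7 genes) summed to 1988 to 2598 CPM in WT and 1428 to 1952 CPM in KO LECs. In IntSCs they summed to 1396 to 2964 CPM in WT and 1090 to 1911 CPM in KO libraries. These sums were led by 1 gene in each cell type. Cd34 averaged 1706.5 CPM in WT and 824 CPM in KO IntSCs, and Kdr 1420 CPM in WT and 1031.5 CPM in KO LECs. Vwf averaged 12.0 and 6.89 CPM in WT and KO IntSCs, 2.80 CPM in WT LECs and 0 in KO LECs. The sums therefore do not measure the amount of blood endothelium. The part of epithelial or blood endothelial cells in the levels below was not tested. Lats1 averaged 17.5 ± 10.3 CPM (SD, n = 6) in WT and 16.03 ± 3.28 CPM (n = 5) in KO IntSCs, and Lats2 72.8 ± 23.7 and 114 ± 20.3 CPM. Whether the counted 3′ ends lie outside the deleted exons is not given in the sources used here, so these levels do not check the deletion, and every KO value below is that of libraries labelled KO. The YAP/TAZ targets Amotl2 and Crim1 were higher in KO IntSCs. They were the 2 of 8 tested targets with an adjusted p under 0.05 by edgeR, against 1.47% of all genes (0.853% higher). All 8, among them Lats2, had a log2 fold change above 0, with a median of 1.43 against 0.0026 over all genes. An unadjusted p under 0.05 by edgeR was found for 5 of them, as for 9.81% of all genes.

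**Figure D1:**
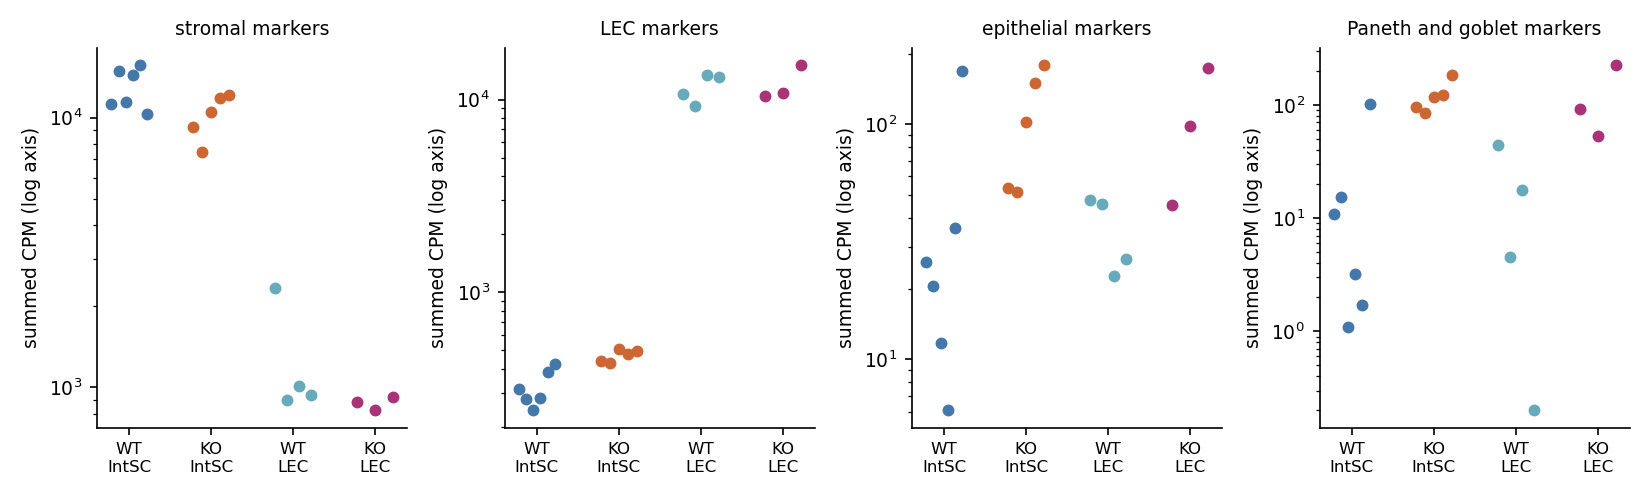
Summed CPM of 4 marker lists in each library (log axis), with 1 point per library in replicate order within its group. WT LEC 1 stands above the other LEC libraries for stromal markers (2344 CPM), and WT IntSC 6 above the other WT IntSC libraries for epithelial (169 CPM) and Paneth and goblet cell markers (101 CPM).

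Between genotypes, none of the 9 genes passed the test in either cell type, whereas between cell types several were lower in LECs. In IntSCs, 0 of the 8 genes with enough reads differed between KO and WT at an adjusted p under 0.05 (edgeR quasi-likelihood test with Benjamini-Hochberg adjustment over 12421 genes), against 1.47% of all genes tested (0.853% higher and 0.62% lower). Fgf10 and Fgfr2 had an unadjusted p under 0.05, as 9.81% of all genes did. DESeq2 and all other settings tried also called 0 of these 8. In LECs, 0 of 3 testable genes differed, against 0.0658% of 10639 genes (0.0282% higher and 0.0376% lower), and none had an unadjusted p under 0.05, as 7.87% of all genes did. In WT mice, 6 of 8 tested genes were lower in LECs than in IntSCs and 0 were higher, where 22.6% of 12203 genes differed, 12.3% lower and 10.3% higher, and 32.5% had an unadjusted p under 0.05. In KO mice, 4 of 8 were lower and 0 higher, where 25.9% of 12758 genes differed, 16.8% lower and 9.11% higher, and 37.1% had an unadjusted p under 0.05. The median log2 difference of the 8 genes was −4.76 in WT mice and −5.61 in KO mice, or −5.02 in KO mice with genes at 0 in LECs held at their bound, while the medians over all genes were −0.04 and −0.21. Of the called genes, Fgf1, Fgf7, Fgfr3 and Hgf in WT mice and Fgf10 and Hgf in KO mice held at most 3 LEC reads. They passed the count filter through their IntSC reads, so a call could only be lower in LECs. The counts and medians of the 8 genes therefore describe levels and do not test a direction. These cell type comparisons share the IntSC and LEC libraries with the genotype comparisons.

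**Figure D2:**
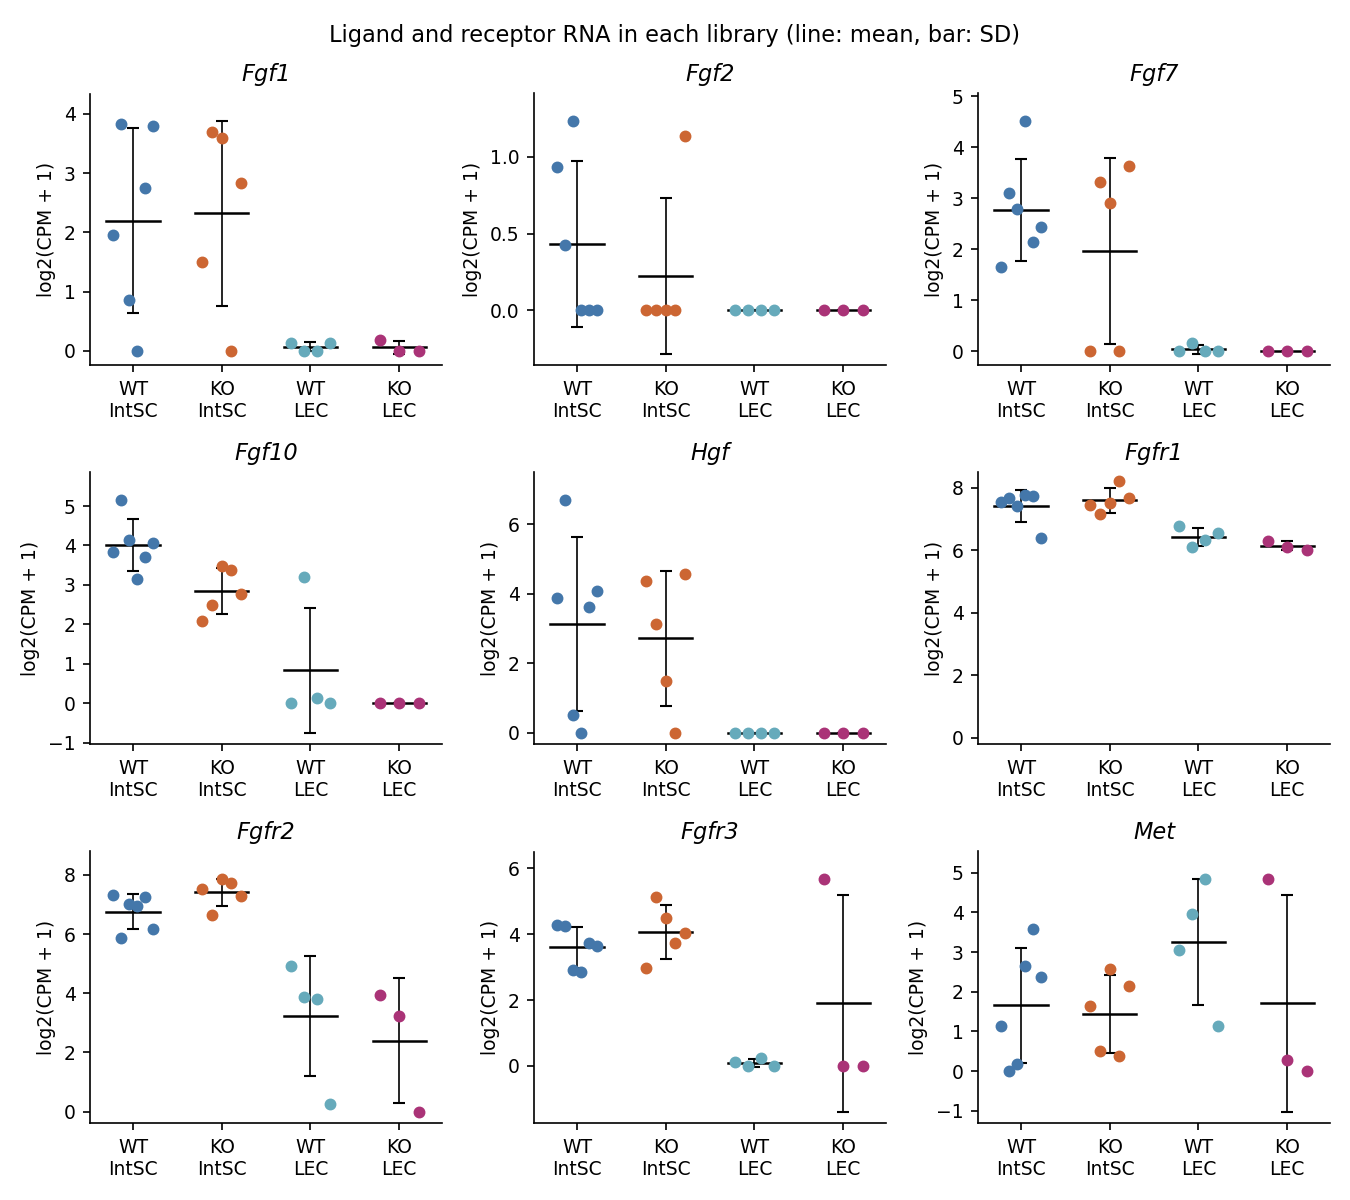
RNA level of each of the 9 genes as log2(CPM + 1), with 1 point per library in replicate order, a line at the group mean and a bar of 1 SD on this scale. Ligand genes lie at or near 0 in LECs, with Fgf10 in WT LEC 2 (8.14 CPM) as the exception, and Fgfr1 is present in all 18 libraries.

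Fgf10, a mesenchymal ligand of FGFR2, was the ligand with the lowest unadjusted p between genotypes in IntSCs. In WT IntSCs it was lowest at 7.91 CPM, had a median of 14.5 and reached 34.9 CPM in WT IntSC 2. The KO IntSC libraries 1 to 5 held 3.27, 4.66, 10.2, 9.39 and 5.84 CPM. The KO values lay toward the lower end and 3 of 5 fell under every WT library, but the groups overlapped. The log2 fold change of KO against WT was −1.33 ± 0.56 (SE), with a 95% interval from −2.50 to −0.15, an unadjusted p of 0.0285 and an adjusted p of 0.401 by edgeR, and it was −0.98 without WT IntSC 2. Among LECs, WT LEC 2 held 66 of the 67 Fgf10 reads at 8.14 CPM, WT LEC 3 had 1 read, and the other 5 libraries had none. The stromal markers of WT LEC 2 summed to 902 CPM, the lowest of the 4 WT LEC libraries. An exact permutation test between KO and WT LECs gave p = 0.571 (smallest possible 0.0571). In WT mice the log2 fold change of LECs against IntSCs was −3.04 ± 1.49 (adjusted p = 0.175, edgeR). Without WT LEC 2 it was −8.47 with an adjusted p of 0.000799 by edgeR, so that library decided the call. In KO mice Fgf10 was at least 55.6-fold lower in LECs, where no read was seen (3 counts over the group as the floor, adjusted p = 0.00907 by edgeR). The genotype effect in IntSCs minus that in LECs was 5.68 ± 2.35 on the log2 scale (adjusted p = 0.229, edgeR), and 0.24 without WT LEC 2.

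Fgf7, which encodes keratinocyte growth factor, showed no genotype difference in IntSCs beyond the spread between libraries. WT IntSCs ranged from 2.13 CPM over a median of 5.19 to 22.1 CPM in WT IntSC 4. KO IntSC libraries 1 to 5 held 0, 9.04, 6.48, 0 and 11.4 CPM. The 2 KO libraries without a read stood beside 3 within the WT range. KO against WT gave a log2 fold change of −0.51 ± 1.11 (95% interval −2.82 to 1.81, adjusted p = 0.965 by edgeR). A single read was found among the 7 LEC libraries, in WT LEC 2. In WT mice Fgf7 was lower in LECs by a ratio of pooled CPM of 289 (95% counting interval 51.4 to 11441, 280 reads against 1), with an adjusted p of 0.00818 by edgeR. In KO mice it was at least 45.6-fold lower, at an adjusted p of 0.0732 by edgeR that missed the threshold.

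Fgf1, an FGF without a signal peptide that binds all FGF receptors, varied among IntSC libraries over a wide range in both genotypes. WT IntSCs ran from 0 CPM over a median of 4.32 to 13.2 CPM, and KO IntSC libraries 1 to 5 held 1.83, 11.9, 11.04, 0 and 6.11 CPM. Library 4 of each genotype lacked reads, and the means of 5.92 ± 5.87 (SD, n = 6) and 6.18 ± 5.33 CPM (n = 5) were close. KO against WT gave a log2 fold change of 0.05 ± 1.16 (95% interval −2.36 to 2.46, adjusted p = 0.996 by edgeR). LECs held 3 reads in all, 2 in the WT and 1 in the KO libraries. In WT mice the ratio of IntSCs to LECs was 107 (95% counting interval 29.2 to 887), and the adjusted p of 0.0295 by edgeR rose above the threshold when any 1 of the 4 WT LEC libraries was left out (0.0547 to 0.0728). In KO mice the ratio was 159 (28.2 to 6294) with an adjusted p of 0.0526 by edgeR, which fell to 0.0159 without KO IntSC 4, the KO IntSC library lacking reads.

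Fgf2, basic FGF, was near the limit of detection. It had 27 reads in all, in WT IntSC 1, 2 and 3 (0.912, 0.344 and 1.35 CPM) and in KO IntSC 5 (1.195 CPM). The other 14 libraries had none, and the gene was under the count filter in every comparison. KO and WT IntSCs differed by −0.21 in mean log2(CPM + 1) (two-sided exact permutation p = 0.545, smallest possible 0.00433). No read in 7 LEC libraries allows up to 0.0764 CPM over the WT and 0.120 CPM over the KO group, counting error only. The cell types gave an exact permutation p of 0.333 in WT mice (smallest possible 0.00952) and of 1 in KO mice (smallest possible 0.0357). Nudt6, which shares bases with Fgf2, had 21 to 77 reads per WT IntSC library.

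Hgf was detected in IntSCs and in none of the LEC libraries. In WT IntSCs the lowest value was 0, the median 12.5 and the highest 104 CPM, in WT IntSC 2. KO IntSC libraries 1 to 5 held 19.5, 7.81, 1.80, 0 and 22.8 CPM. Library 4 of each genotype had no read, and the genotypes overlapped. The log2 fold change of KO against WT was −1.23 ± 1.45 (95% interval −4.43 to 1.97, adjusted p = 0.911 by edgeR) and 0.33 without WT IntSC 2. In WT mice Hgf was at least 296-fold lower in LECs (0 reads against 860, adjusted p = 0.0106 by edgeR), and at least 103-fold without WT IntSC 2. In KO mice it was at least 87.0-fold lower (0 reads against 393), and its adjusted p of 0.0364 by edgeR exceeded the threshold, at 0.0527 to 0.0700, without any 1 library of either KO group other than KO IntSC 4.

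Fgfr1 RNA was present in every library and was lower in LECs of both genotypes. WT IntSCs ran from 83.4 CPM in WT IntSC 6 over a median of 195 to 220 CPM. KO IntSC libraries 1 to 5 held 173, 143, 181, 299.9 and 203 CPM. WT LECs held 109, 68.0, 79.3 and 92.8 CPM and KO LECs 78.5, 68.0 and 64.0 CPM. WT IntSC 6, the library with the highest epithelial marker sum of its group, alone among IntSCs lay within the LEC range, and the part of those cells in its level was not tested. The log2 fold change of KO against WT was 0.16 ± 0.24 in IntSCs (95% interval −0.33 to 0.65, adjusted p = 0.933) and −0.24 ± 0.39 in LECs (−1.08 to 0.60, adjusted p = 0.9999), both by edgeR. LECs against IntSCs gave −1.03 ± 0.28 in WT (adjusted p = 0.0149) and −1.52 ± 0.28 in KO mice (adjusted p = 0.00343) by edgeR, and the KO groups did not overlap. Without WT LEC 1, whose stromal marker sum was highest, the WT difference was −1.15.

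Fgfr2, the receptor for FGF7 and FGF10 in its epithelial form, was higher on average in KO IntSCs, at a size that did not pass the adjusted test. WT IntSCs ranged from 57.4 CPM over a median of 125 to 158 CPM. KO IntSC libraries 1 to 5 held 183, 99.98, 230, 209 and 155 CPM. Of the KO libraries, 3 of 5 exceeded every WT library. KO against WT gave a log2 fold change of 0.62 ± 0.26 (95% interval 0.08 to 1.17, unadjusted p = 0.0271, adjusted p = 0.389 by edgeR), and 0.52 without WT IntSC 6. WT LECs held 28.9, 13.7, 13.1 and 0.200 CPM and KO LECs 14.5, 8.46 and 0 CPM. All 7 LEC libraries lay under all 11 IntSC libraries, and the highest LEC value was that of WT LEC 1, the library with the most stromal marker RNA. LECs against IntSCs gave −3.02 ± 0.77 in WT (adjusted p = 0.0113) and −4.52 ± 1.03 in KO mice (adjusted p = 0.00941) by edgeR, and −3.66 in WT mice without WT LEC 1. The WT call was lost with no count filter and with the replicate block (adjusted p up to 0.0974, edgeR). Between LEC genotypes the log2 fold change was −0.81 ± 1.95 (95% interval −5.004 to 3.39, adjusted p = 0.9999 by edgeR), an interval that holds changes in both directions.

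Fgfr3 RNA was found in all IntSC libraries and, among LECs, almost entirely in 1 library. WT IntSCs ran from 6.23 CPM over a median of 11.8 to 18.2 CPM, and KO IntSC libraries 1 to 5 held 6.80, 33.7, 21.6, 12.4 and 15.3 CPM. The log2 fold change of KO against WT was 0.57 ± 0.51 (95% interval −0.48 to 1.62, adjusted p = 0.846 by edgeR), and the groups overlapped. WT LECs held 0.0951, 0, 0.187 and 0 CPM, 3 reads in all. KO LEC 1 held 363 reads at 50.7 CPM, more than any IntSC library, and KO LEC 2 and 3 had no read. The stromal markers of KO LEC 1 summed to 881 CPM, between the other KO LEC libraries, and its epithelial markers to 45.2 CPM, the lowest of the 3. In WT mice IntSCs exceeded LECs by a ratio of 157 (95% counting interval 53.4 to 764, adjusted p = 0.00270 by edgeR). In KO mice the log2 fold change of LECs against IntSCs was −0.09 ± 1.67 (adjusted p = 0.981), and without KO LEC 1 Fgfr3 was lower in LECs with an adjusted p of 0.00267 by edgeR. KO and WT LECs could be compared only by an exact permutation test (p = 0.857, smallest possible 0.0571).

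Met, the HGF receptor, was the only one of the 9 genes whose mean was higher in LECs than in IntSCs in both genotypes, and neither difference passed. WT IntSCs ran from 0 over a median of 2.72 to 10.97 CPM, and KO IntSC libraries 1 to 5 held 2.09, 0.411, 4.92, 0.298 and 3.45 CPM. WT LECs held 7.32, 14.6, 27.5 and 1.1999 CPM. KO LECs held 27.9, 0.206 and 0 CPM, so that 200 of their 202 reads came from KO LEC 1, the library that also held the Fgfr3 reads. LECs against IntSCs gave log2 fold changes of 1.81 ± 1.34 in WT (95% interval −1.03 to 4.65, adjusted p = 0.395) and 2.06 ± 1.78 in KO mice (−1.88 to 5.99, adjusted p = 0.475) by edgeR. Without KO LEC 1 the latter was −4.21. KO against WT gave −0.69 ± 1.32 in IntSCs (−3.44 to 2.06, adjusted p = 0.950) and −0.39 ± 2.02 in LECs (−4.73 to 3.96, adjusted p = 0.9999) by edgeR, each with overlapping groups.

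**Figure D3:**
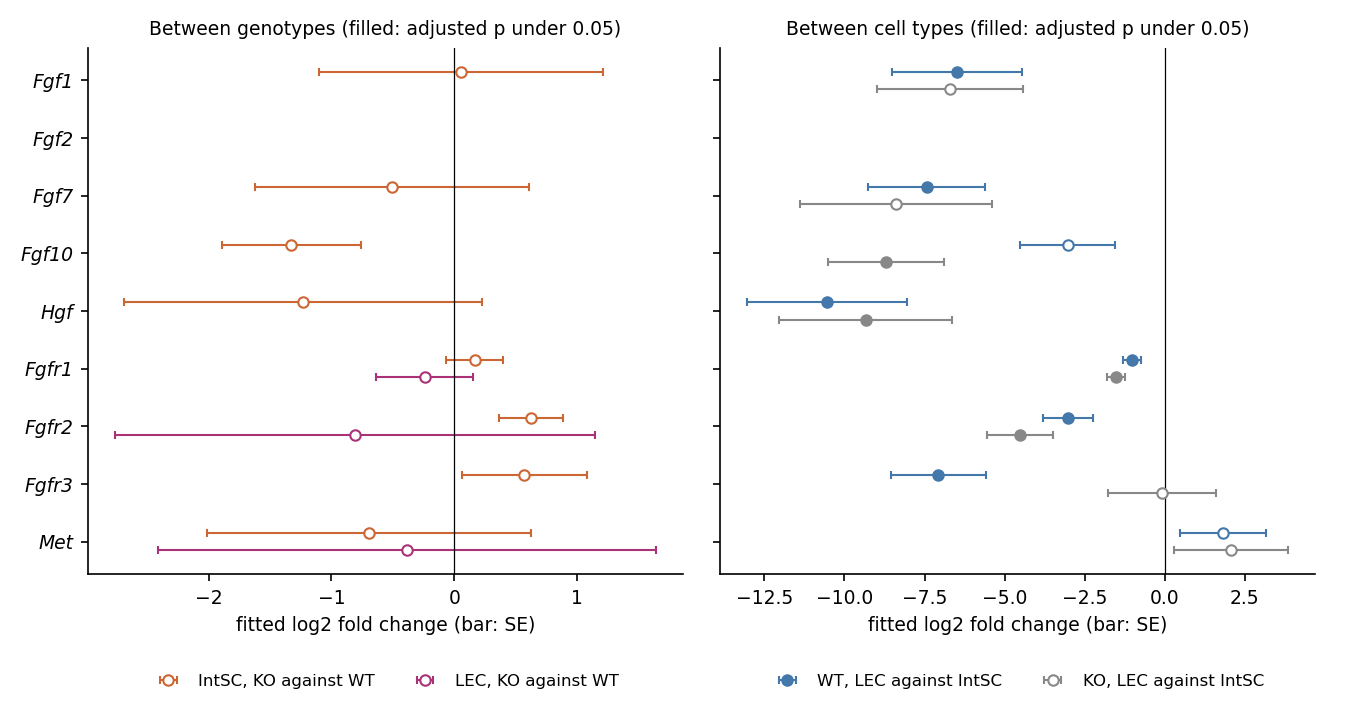
Fitted log2 fold changes (edgeR) with SE of KO against WT in each cell type (left) and of LECs against IntSCs in each genotype (right), with filled points at an adjusted p under 0.05 and no point for genes under the count filter. All points on the left are open, and the points of genes without reads in 1 group depend on the fit's prior count and are not bounds.

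By group mean, Fgf1, Fgfr1, Fgfr2 and Fgfr3 stood highest in KO IntSCs and Fgf2, Fgf7, Fgf10 and Hgf in WT IntSCs, and for none of these 8 genes did the 2 IntSC groups differ by the test. For Fgf1, Fgf7, Fgf10, Fgfr1 and Fgfr2 the WT LECs followed and KO LECs came last, and for Fgf2 and Hgf both LEC groups were at 0. Met stood highest in WT LECs, followed by KO LECs, WT IntSCs and KO IntSCs, and none of its 4 tested differences passed. For Fgfr3 the KO LEC mean of 16.9 ± 29.3 CPM (SD, n = 3) stood second through KO LEC 1 alone.

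Whether the genotype effect differed between IntSCs and LECs was tested by an interaction of genotype and cell type over all 18 libraries. Of the 9 genes, 8 were fitted and 0 passed, against 1.7% of 14015 genes (1.42% higher and 0.278% lower, and 15.8% at an unadjusted p under 0.05). The fitted value of Hgf was left out, since the gene had no LEC read in either genotype. The largest value was that of Fgfr3, −6.99 ± 2.07 (unadjusted p = 0.00249, adjusted p = 0.0814 by edgeR). It passed with DESeq2 (adjusted p = 0.00478) and in edgeR without KO LEC 2 (0.0190) or KO LEC 3 (0.0218). Without KO LEC 1 it was 3.06 with an adjusted p of 0.449 by edgeR, so its sign rested on that library.

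Other genes of the pathway were read from lists of ligands, co-receptors, heparan sulfate enzymes, HGF processing factors, relay proteins and ERK targets. In IntSCs 3 of the 74 tested genes differed between genotypes (4.05%, against 1.47% of all genes). Gpc1, a glypican that carries heparan sulfate chains binding FGFs, fell in KO IntSCs by 1.46 ± 0.28 on the log2 scale (adjusted p = 0.00784, edgeR). Its WT levels ran from 54.4 over a median of 87.5 to 102 CPM, and the KO libraries held 34.3, 34.9, 20.9, 16.9 and 47.7 CPM, and its call was lost only with all 4 groups in 1 fit, 1 of 17 alternatives. It was the 1 called gene of 14 tested co-receptors, whose median was 0.13. Hs3st1, which adds a rare sulfate group to heparan sulfate, rose by 1.11 ± 0.26 (adjusted p = 0.0303, edgeR), from 23.6 to 39.1 CPM in WT to 52.4, 69.8, 79.6, 67.7 and 45.6 CPM in KO IntSCs. It was the 1 called of 12 heparan sulfate enzymes (median −0.02), and its call was lost in 9 of 17 alternatives, 7 of them leaving out WT IntSC 1, 3 or 5 or KO IntSC 1, 2, 3 or 4. The groups did not overlap for either gene.

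Ccnd1, which encodes cyclin D1 and is induced by ERK signalling among other inputs, fell in KO IntSCs by 1.97 ± 0.36 on the log2 scale (adjusted p = 0.00859, edgeR). Its WT levels ran from 191 over a median of 339 to 486 CPM and the KO libraries held 42.4, 81.5, 91.8, 181 and 42.4 CPM. The groups did not overlap, and the call held in 17 of 17 alternatives. It was the 1 called of 15 tested ERK feedback genes and targets (median −0.19). The feedback genes of the Sprouty, Spred and DUSP families in the list did not pass, nor did any of the 22 relay proteins from Frs2 to Stat3 (median 0.09), the 9 tested HGF processing factors and relatives (median 0.30), or Fgf9 and Fgf18, the 2 further ligands with enough reads of 14. In the same libraries the epithelial and the Paneth and goblet cell marker sums were higher in KO than in most WT IntSCs, as given above. Stromal markers summed to 7450 to 12157 CPM in KO and 10278 to 15675 CPM in WT IntSCs, and smooth muscle and pericyte markers (8 genes) to 1337 to 2360 and 1179 to 1742 CPM. The stromal markers moved both ways. Of the 9, 3 had a log2 fold change above 0 and 0 passed as higher. Pdgfrb averaged 484 CPM in WT and 878 CPM in KO IntSCs, whereas Dcn averaged 4769 and 3998 CPM and Col1a1 1994 and 1204 CPM. The part of any of these in the 3 differences was not tested. In LECs 0 of 62 tested genes of these lists differed between genotypes, against 0.0658% of all genes tested. That share is too small for the 0 to say anything of these lists.

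**Figure D4:**
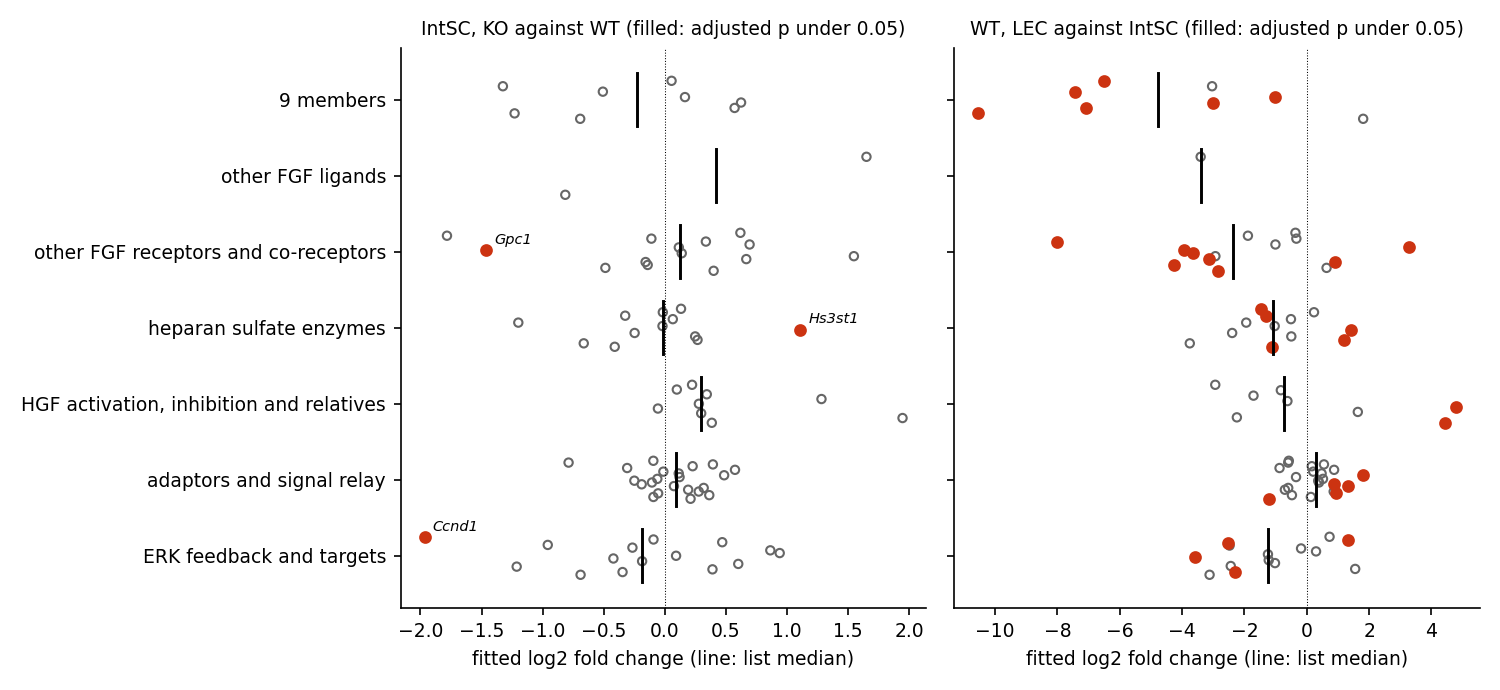
Fitted log2 fold changes (edgeR) of the 9 genes and of 6 lists of other FGF and HGF pathway genes, in IntSCs between genotypes (left) and in WT mice between cell types (right), with 1 point per tested gene, filled at an adjusted p under 0.05, and a line at each list's median. Gpc1, Hs3st1 and Ccnd1 are filled on the left, whereas filled points lie on both sides of 0 on the right.

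The genotype effect differed between the cell types for 2 of 76 tested list genes (2.63%, against 1.7% of all genes). Ier3, an immediate early gene downstream of ERK, gave an interaction of 1.92 ± 0.38 (adjusted p = 0.00896, edgeR), with a log2 fold change of 0.94 in IntSCs and −0.90 in LECs, neither of which passed alone. The call was lost with the replicate block (adjusted p = 0.0870, edgeR). In IntSCs its levels overlapped, at 387 to 991 CPM in WT and 714 to 1616 CPM in KO libraries. In LECs its levels did not overlap, at 647, 657, 751 and 958 CPM in WT and 377, 343 and 429 CPM in KO libraries. Mst1r, which encodes a receptor related to MET, gave 8.26 ± 2.11 (adjusted p = 0.0462, edgeR). It had no read in the 3 KO LEC libraries and 5.80, 0.123, 0.281 and 9.30 CPM in WT LECs, and the call held in 5 of 23 alternatives.

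Between cell types the co-receptors moved both ways. List genes with almost no LEC reads passed the count filter through their IntSC reads and could only be called lower in LECs. The list counts between cell types therefore describe levels and do not test a direction. In WT mice 8 of 14 passed, 6 lower and 2 higher in LECs, where 22.6% of all genes tested passed. The syndecans Sdc4 (87.2 against 12.1 CPM) and Sdc2 (148 against 7.70 CPM) were lower in LECs, by 2.84 ± 0.49 and 4.25 ± 0.86 on the log2 scale. Flrt3 (12.2 against 117 CPM), an FGFR-binding membrane protein, and Sdc1 (82.7 against 156 CPM) were higher. In KO mice 7 of 14 passed, 5 lower and 2 higher, where 25.9% of all genes tested passed. Gpc1 and Gpc4 had 2 reads each in KO LECs against means of 30.9 and 37.7 CPM in KO IntSCs. Flrt3 and Sdc1 were again the higher ones, at 163 and 169 CPM in KO LECs. The calls of Sdc1 were lost in 7 of 16 alternatives in WT and 7 of 14 in KO mice.

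Genes that build or trim heparan sulfate differed in both directions between WT cell types. In WT mice 3 of 12 were lower and 2 higher, where 22.6% of all genes tested passed. Among them Extl3 (131 against 53.0 CPM) and Sulf2 (160 against 73.7 CPM) were lower in LECs. Hs3st1 (29.3 against 77.2 CPM) and Ndst2 (32.5 against 73.8 CPM) were higher in LECs. The call of Ndst2 was lost in 9 and that of Hs3st1 in 5 of 16 alternatives. In KO mice 3 of 12 were lower and 0 higher, a share near the 25.9% of all genes that passed. Sulf1, a sulfatase that removes sulfate groups from heparan sulfate, had no read in KO LECs and 24.5 ± 9.75 CPM (SD, n = 5) in KO IntSCs, and Ext1 stood at 45.5 and 194 CPM.

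Among proteases and inhibitors that control HGF, both called genes were higher in WT LECs. Plau, the urokinase that can cleave the HGF precursor, was higher in LECs by 4.78 ± 1.23 on the log2 scale in WT (63.5 against 2.30 CPM) and 5.30 ± 0.72 in KO mice (112 against 2.80 CPM). Spint2, an inhibitor of HGF-activating proteases, was higher in WT LECs (24.3 against 1.12 CPM). These were the 2 called of 8 tested genes in WT mice, a share near the 22.6% of all genes. In KO mice 5 of 10 passed, where 25.9% of all genes tested did. Plau and its receptor Plaur (41.5 against 9.64 CPM) were higher and 3 genes lower, among them Mst1r (no read against a mean of 16.2 CPM). The call of Plaur was lost in 7 of 14 alternatives.

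Among relay proteins and ERK targets, Hras and Nras were higher and Stat3 lower in LECs of both genotypes. Hras stood at 65.0 against 18.7 CPM in WT and 115 against 26.2 CPM in KO mice. Stat3 stood at 303 against 696 CPM in WT and 315 against 805 CPM in KO mice. Of the relay list, 5 of 22 genes passed in each genotype, 4 and 3 of them higher in LECs, a share near that of all genes (22.6% in WT and 25.9% in KO mice). Dusp6, a phosphatase induced by ERK that acts on ERK, was higher in LECs, at 338 against 137 CPM in WT and 355 against 128 CPM in KO mice. Egr1 (335 against 1924 CPM in WT) and Phlda1 (24.8 against 299 CPM in WT) were lower in LECs of both genotypes. Of this list 4 of 14 passed in WT mice, a share near the 22.6% of all genes, and 1 of them was higher. In KO mice 9 of 16 passed, where 25.9% of all genes did, and 2 of them were higher, Dusp6 and Ccnd1. Among the lower ones Etv1 and Spred3 had 0 reads in KO LECs, so their calls could only be lower. Fgf18 was the 1 further ligand that passed, lower in KO LECs with 1 read against 271 reads in KO IntSCs.

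Genes whose levels followed those of each ligand or receptor most closely were sought over the 11 IntSC libraries among 10569 genes with a mean of at least 5 CPM. The 2 highest Pearson correlations of log2(CPM + 1) were with Pcp4l1 (r = 0.961) and Ganc (0.936) for Fgf1, Homer1 (0.894) and Ovca2 (0.872) for Fgf7, and B9d1 (0.925) and Ranbp1 (0.904) for Fgf10. For Hgf they were Ankrd26 (0.951) and Dhx34 (0.942). For the receptors they were Gid8 (0.963) and Polr2m (0.962) with Fgfr1, Cnn2 (0.949) and Ltv1 (0.937) with Fgfr2, and AU019823 (0.894) and Gpbp1 (0.861) with Fgfr3. Leaving out the 2 libraries farthest from the median lowered these values for Fgf7 to 0.652 and 0.594. The 11 points share the library, its depth and the 2 genotypes, and with so many genes compared the highest values are a description.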

How the data were processed

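RNA of sorted cells was extracted with Trizol, and libraries were made with the Lexogen QuantSeq kit, which reads transcript 3′ ends. Per the labels, reads were aligned with Bowtie2 to mm10 and edgeR was used; the study's methods name TopHat and Cufflinks. The counting program, its annotation and its strand setting are not given in the sources used here. Each of the 18 deposited tables (23282 rows) gives counts as whole reads for each gene symbol, which the authors had not normalised. Counts of 35 symbols on more than 1 row were summed. Totals were 5361250 to 10549233 counts per library, and 3 counts correspond to 0.284 to 0.560 CPM; PCR copies are not separate molecules, so floors and counting intervals cover counting error only. The ribosomal precursor Rn45s took 7.02% to 24.4% of counts. Groups and replicate numbers came from the titles. The labels do not say that replicates came from separate mice, whereas the study's supplement gives numbers of mice per group that match the numbers of libraries. It pooled several experiments, and the labels do not say which library belonged to which, so p-values measure the spread between these libraries.

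Differences were tested on counts by the quasi-likelihood method of edgeR 4.0.16 under R 4.3.3 (filterByExpr, TMM factors, robust quasi-likelihood fit, Benjamini-Hochberg adjustment, threshold 0.05), with the 2 groups compared in the fit, or all 4 for the interaction. SEs came from the F statistic and 95% intervals from its t distribution. Levels are CPM with TMM factors over 18 libraries. Genes under the filter were compared by two-sided exact permutation tests of log2(CPM + 1) with scipy 1.17.1. The fits were tested on simulated data. Alternatives were other size factors, filters, DESeq2 1.42.0, a replicate block, all 4 groups in 1 fit and leaving out each library. The genes and lists were chosen with earlier results of these data known. Named list genes were those past the threshold between genotypes or in the interaction, and between cell types at most 2 per list and direction with the smallest p, with other genes that a count refers to named after their values were seen; 1 gene that the rule names is not reported here. RefSeq promoter sequences were used for 7 of the 9 genes: Fgfr1 had none, and the position and sequence of Fgf1 are not reported here. Same-numbered libraries correlated weakly in their deviations, and numbers were not taken as pairs in the main fits.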

Additional observations from a re-analysis of the deposited data

Results flagged for a closer look

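Of 49 sets of values tested, 13 held a library whose gap to its nearest neighbour exceeded Dixon's 95% limit. About 1 in 20, or 2.45, would do so if the values were normally distributed. CPM of genes with few reads need not be, and a set with reads in a single library always exceeds the limit. The 13 are therefore a list of values to look at and not a measured excess. Groups of 3 libraries were not tested, so the KO LEC values are outside this count, among them Fgfr3 (50.7 CPM in KO LEC 1, others 0) and Met (27.9 CPM in KO LEC 1, others at most 0.206). Among the ligands these were Fgf2 in KO IntSC 5 (1.195 CPM, others 0), Fgf7 in WT IntSC 4 (22.1 CPM, others 2.13 to 7.57), Fgf7 in WT LEC 2 (0.123 CPM, a single read, others 0), Fgf10 in WT IntSC 2 (34.9 CPM, others 7.91 to 16.7), Fgf10 in WT LEC 2 (8.14 CPM, others at most 0.0937) and Hgf in WT IntSC 2 (104 CPM, others at most 15.8). Among the receptors Fgfr1 stood low in WT IntSC 6 (83.4 CPM, others 169 to 220). WT IntSC 2 thus stood apart for both Fgf10 and Hgf.

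Marker sums that stood apart were the stromal markers of WT LEC 1 (2344 CPM, others 902 to 1013), the smooth muscle and pericyte markers of WT IntSC 1 (1179 CPM, others 1570 to 1742), the epithelial markers of WT IntSC 6 (169 CPM, others 6.06 to 36.3), its Paneth and goblet cell markers (101 CPM, others 1.08 to 15.3), the leukocyte markers of KO IntSC 4 (24.3 CPM, others 10.9 to 13.8) and the glial and Cajal cell markers of KO IntSC 3 (44.9 CPM, others 5.36 to 14.5).

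For 2 genes the effect of genotype differed between the cell types by the interaction test in edgeR, Mst1r (8.26, adjusted p = 0.0462) and Ier3 (1.92, adjusted p = 0.00896), both on the log2 scale.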

How the results depend on the processing

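Of 565 refitted values of the 9 genes, 498 kept their direction and their side of the threshold, 37 changed sign, 10 passed newly and 20 no longer passed. No gene that passed changed sign. Between genotypes 0 of the 8 genes fitted in IntSCs and 0 of the 3 fitted in LECs passed in the alternatives run. In WT mice 3 to 6 were called between cell types, and leaving out WT IntSC 1, 2, 5 or 6 put Fgf1 and Hgf under the count filter. In KO mice 0 to 6 were called. The number of genes past the threshold in IntSCs was 376 with DESeq2, 27 with all 4 groups in 1 fit and 99 to 186 without 1 library (lowest without KO IntSC 3). In LECs it was 32 without a filter, 20 with a mean count of at least 10, 309 with DESeq2, 538 with all 4 groups and 0 to 16 without 1 library (0 without WT LEC 3, 16 without KO LEC 2). For the interaction it was 1023 with DESeq2 and 161 to 461 without 1 library (highest without KO LEC 2). The causes were not tested.

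Signs changed for log2 fold changes that had not passed. Without 1 library, the IntSC genotype values ran from −0.33 to 0.47 for Fgf1, −0.97 to 0.19 for Fgf7, −0.035 to 0.26 for Fgfr1, −1.73 to 0.33 for Hgf and −1.199 to 0.048 for Met, and the LEC value of Met from −6.66 to 0.30. Between KO cell types they ran from −10.1 to 0.50 for Fgfr3 and −4.21 to 2.64 for Met. The interaction ran from −0.29 to 2.10 for Fgf1, −0.49 to 1.67 for Fgf7 (−0.15 with DESeq2), −7.82 to 3.06 for Fgfr3 and −0.98 to 6.02 for Met. For the other pathway genes, refitted in an addition made after seeing the data, 0 of those that passed changed sign.

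Replicate numbers were shared across groups, and libraries with the same number correlated at −0.0623 to 0.0800 in their deviations. Of these, 2 of 5, 1 of 3, 3 of 4 and 1 of 3 correlated best with their own number (IntSC, LEC, WT and KO cell type comparisons). In the WT cell type comparison same numbers correlated at 0.0226 to 0.0436, with a mean of 0.0352 against −0.0070 for other numbers. Such weak correlations cannot decide whether same-numbered libraries share a mouse or a sort. With the replicate block, 122 genes passed in IntSCs, 3 in LECs, 1596 and 895 between cell types in WT and KO mice and 16 for the interaction. Of the 9 genes, 3 (Fgfr1, Fgfr3 and Hgf) and 0 then passed between cell types. The block gave IntSC values of −0.022 for Fgfr1, 0.13 for Hgf and 0.51 for Met, −0.99 for Met between KO cell types and 5.34 for Met in the interaction.

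Fgf2 had 27 reads in 18 libraries, which limits its comparisons. Between LEC groups an exact test cannot go under 0.0571.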

Other observations

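LEC libraries differed from one another more than IntSC libraries did in which genes they held, a measure chosen after seeing the data. For each library, genes with at least 5 CPM there and at most 3 reads in 2 other libraries of its group were counted over all groups of 3. Their share averaged 0.345% to 2.02% of the genes at 5 CPM in IntSC libraries and 3.07% to 7.89% in LEC libraries. The values of Fgf10 in WT LEC 2, Fgfr3 in KO LEC 1 and Met in KO LEC 1 are of this kind.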
